A study of Mus musculus with 14 samples.

Results

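The HOX-B cluster was followed in mouse lineage-negative bone marrow cells across 2 experiments with 14 RNA-seq libraries. Its members were the 8 genes Hoxb2 to Hoxb9, taken by symbol from both count tables, 8 of 55367 genes in each. All cells came from wild-type mice and were grown with the cytokines SCF, IL6 and IL3 after transduction with a pSMAL lentivirus. In the first experiment the virus carried luciferase (LUC, 3 libraries) or SETBP1-D868N, a mutant form of the nuclear protein SETBP1 found in myeloid leukaemia (3 libraries). In the second, every culture was labelled as carrying SETBP1-D868N and received either the solvent DMSO (4 libraries) or PF-9363, an inhibitor of MYST family histone acetyltransferases, at 2.5 µM for 4 days (4 libraries). The comparisons ask how the transgene, and then the inhibitor on top of it, changed transcript levels, and they share no library. The cells were a mixed marrow population carrying an introduced virus, and the labels do not say whether replicates came from separate mice or cultures. The p-values therefore measure only the spread between these libraries, which may be technical.

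HOX genes encode homeodomain transcription factors that lie in 4 clusters and are read in an order along each cluster that follows position in the embryo. In blood, genes of the A and B clusters are active in stem and progenitor cells and fall silent as cells mature, and HOX proteins bind DNA together with PBX and MEIS cofactors. Hoxb4 is known for expanding blood stem cells when overexpressed, Hoxb5 as a marker of long-term stem cells, and Hoxb8 for blocking myeloid differentiation when forced on.

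All 8 members lie on the plus strand of chromosome 11 in GRCm38, with positions here from the GENCODE M21 annotation. In the direction of transcription the order is Hoxb9 (chr11:96271457-96276595), Hoxb8 (chr11:96281905-96285315), Hoxb7 (chr11:96286623-96290162), Hoxb6 (chr11:96292476-96301569), Hoxb5 (chr11:96303336-96306121), Hoxb4 (chr11:96318267-96321638), Hoxb3 (chr11:96323326-96347930) and Hoxb2 (chr11:96350525-96354012). Overlap with genes on the opposite strand touches some of them, and the strand setting of the counting is not given in the sources used here. The antisense gene Hoxb3os (chr11:96343072-96354691) covers 52.9% of the exon bases of Hoxb3 and 27.3% of those of Hoxb2. The antisense gene Hoxb5os (chr11:96291024-96306910) covers 3.59% of the exon bases of Hoxb5. Hoxb4, Hoxb6, Hoxb7, Hoxb8 and Hoxb9 share no exon base with an annotated gene on the other strand.

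RefSeq (GRCm38.p6) gave a promoter entry for 2 of the 8 members, Hoxb4 and Hoxb8. They are printed because they were the most abundant member and the one with no count in any library. Each line holds the 250 bases before the RefSeq start, 5′ to 3′ on the plus strand, chr11:96318017-96318266 for Hoxb4 and chr11:96281655-96281904 for Hoxb8. Capitals mark every match, on either strand, to 6 strings: CCAAT (the CCAAT box), CACGTG (an E-box), TATAAA (the TATA box), TGATTGAT (a HOX-PBX site), TTAATTA (a HOX core) and TTTATG (a CDX site).
Hoxb4: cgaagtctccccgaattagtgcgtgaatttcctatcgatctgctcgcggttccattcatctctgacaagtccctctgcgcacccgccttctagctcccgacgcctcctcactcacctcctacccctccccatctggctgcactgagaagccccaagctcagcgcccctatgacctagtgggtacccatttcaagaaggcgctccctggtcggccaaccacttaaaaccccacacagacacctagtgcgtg
Hoxb8: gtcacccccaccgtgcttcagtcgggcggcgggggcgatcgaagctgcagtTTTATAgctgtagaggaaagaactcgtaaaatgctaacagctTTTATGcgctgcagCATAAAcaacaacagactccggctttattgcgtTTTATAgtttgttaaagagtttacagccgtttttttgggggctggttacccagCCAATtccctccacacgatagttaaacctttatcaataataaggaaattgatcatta

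The Hoxb4 window matched none of the 6 strings, which says only that these letters are not in it. The Hoxb8 window held CCAAT at -57 from the start, TATAAA on the minus strand at -199 and -110, and TTTATG at -157 and, on the minus strand, at -143. Among all 32851 promoter windows of the same length, 33.8% held CCAAT, 12.4% TATAAA, 10.8% TTTATG, 6.02% CACGTG, 2.78% TTAATTA and 0.67% TGATTGAT. The Hoxb4 window was richer in G and C (58.0%, with 14 CG pairs) than the Hoxb8 window (44.4%, with 12 CG pairs), where the median window had 52.4% and 6 CG pairs. A match is a description of the letters and was not tied to any binding.

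Library totals ranged from 60147266 to 68730322 counts in the first experiment and from 7083731 to 10359093 in the second, where less RNA went into each library (100 ng against 500 ng) and another preparation was used. A count of 0 therefore allows up to 0.0436 to 0.0499 CPM (counts scaled to a fixed library total) in the first and 0.290 to 0.424 in the second, covering counting error only. The mouse Setbp1 row held 5, 6 and 6 counts in LUC and 23, 20 and 24 in SETBP1-D868N, and 0 to 2 in the 8 libraries of the second experiment. The latter came to at most 0.198 CPM, below the 0.306 to 0.362 CPM of SETBP1-D868N in the first. A 0 in the second allows up to 0.290 to 0.424 CPM, which reaches that range, and the preparation differed. This row therefore cannot decide whether the cultures of the second carried the transgene. Whether reads of the construct fall on this row is not given. Kit, a receptor of progenitors, was present in every group (mean 180.5, 114.5, 69.81 and 191.1 CPM in LUC, SETBP1-D868N, DMSO and PF-9363), beside 21120 to 21910 summed CPM of 10 neutrophil markers in LUC, so markers of mature cells were abundant in cells labelled lineage-negative and harvested after culture.

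In every group Hoxb4 was the most abundant member and Hoxb3 the next, and the genes at the Hoxb9 end were at or near 0. Values below are CPM scaled by the trimmed mean of M values (TMM), separately in each experiment. To compare genes, the mean CPM was divided by exon length in kb. On that scale Hoxb4 stood at 3.55 in LUC, 3.58 in SETBP1-D868N, 4.16 in DMSO and 3.54 in PF-9363. Hoxb3 stood at 0.428, 0.509, 1.51 and 1.12 CPM per kb in the same order of groups. Hoxb2 followed in LUC at 0.0309 CPM per kb, with Hoxb5 lower at 0.00202. In SETBP1-D868N, Hoxb2 at 0.0756 and Hoxb5 at 0.0583 CPM per kb did not differ beyond their spread, and the same held in DMSO at 0.0825 and 0.154. In PF-9363, Hoxb6 at 0.161 CPM per kb, on 0 to 5 counts a library, and Hoxb2 at 0.0692 overlapped.

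**Figure D1:**
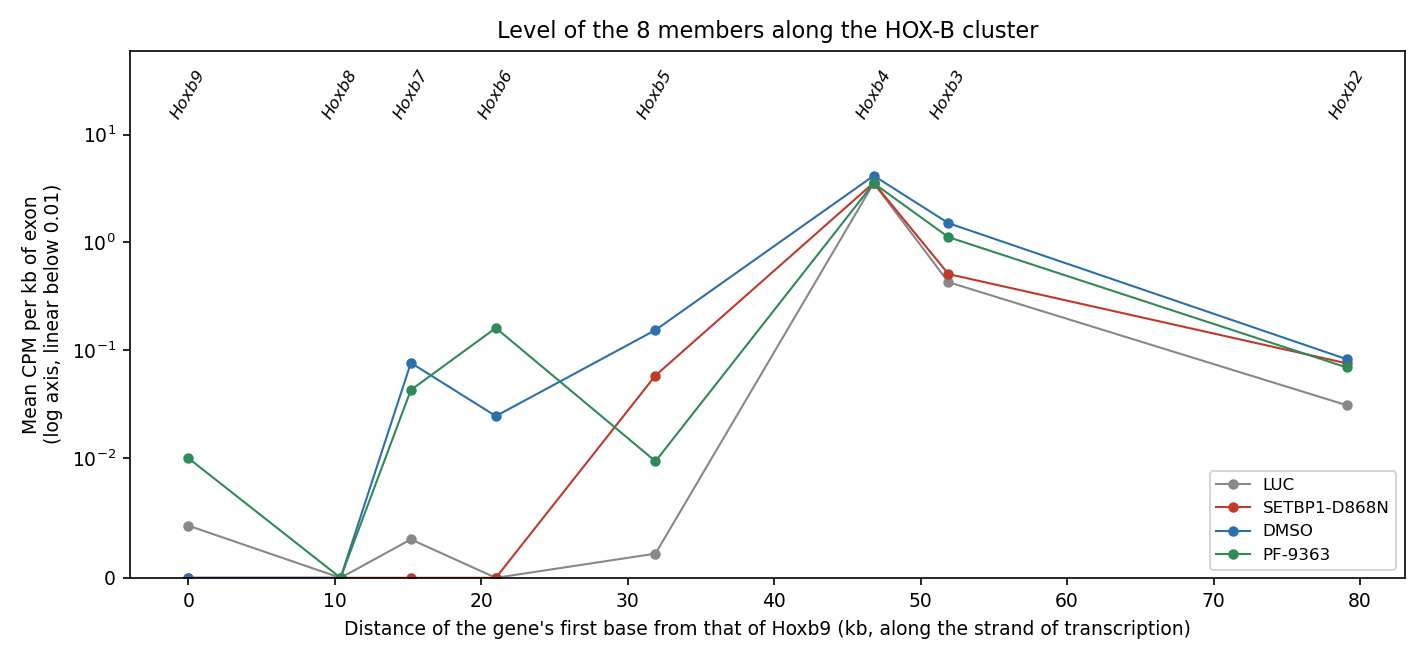
Mean CPM per kb of exon (vertical, log axis that turns linear below 0.01) of the 8 members against distance from the start of Hoxb9 (horizontal, kb), with 1 line per group. All 4 lines peak at Hoxb4, between 3.54 and 4.16 CPM per kb, and all 4 are at 0 at Hoxb8.

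Of the counts falling on the 8 members, Hoxb4 took 82.3% ± 1.05 (SD, n = 3) in LUC and 78.0% ± 1.55 (n = 3) in SETBP1-D868N. Its share was 59.5% ± 2.43 (n = 4) in DMSO and 61.5% ± 9.64 (n = 4) in PF-9363. Hoxb3 held 16.5% ± 1.08, 18.4% ± 1.31, 35.6% ± 2.39 and 33.7% ± 8.58 in the same order. The shares sum to 100% within a library and so are not independent, and Hoxb3 includes the bases it shares with Hoxb3os. The experiments differed in library preparation and share no library, so the gap between them was not tested. Hoxb3os stood at 0.173 CPM in SETBP1-D868N and 4.46 CPM in DMSO, and its part in the Hoxb3 shares was not tested.

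Hoxb6 to Hoxb9, the members nearest the 5′ end of the cluster, gave too few counts to pass edgeR's filter in either experiment. With no filter, none of them had an edgeR adjusted p under that of Hoxb6 with PF-9363, 0.113. Hoxb8 had 0 counts in all 14 libraries. Hoxb6 had 0 counts in all 6 libraries of the first experiment, 1, 0, 1 and 0 in DMSO, and 0, 2, 3 and 5 in PF-9363. The 3 libraries of Hoxb6 above 1 count were all treated, but the groups overlapped (exact permutation test, two-sided p = 0.143). Hoxb7 had 1, 0 and 0 counts in LUC, 0 in each SETBP1-D868N library, 0, 2, 0 and 3 in DMSO and 0, 0, 1 and 1 in PF-9363. Hoxb9 had 2 counts in 1 LUC library and 1 count in 1 PF-9363 library, and 0 in the other 12. These 4 members were therefore not detected above the 3-count floor, apart from Hoxb6 in 1 PF-9363 library with 5 counts.

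SETBP1-D868N against LUC raised Hoxb2, whereas Hoxb4 and Hoxb3 did not pass the test. Hoxb5 had 1 count over the 3 LUC libraries and 32 over the 3 SETBP1-D868N libraries, too few for the test. Of the 8 members, 3 passed the filter on low counts and 1 of these 3 was called higher and 0 lower by edgeR at an adjusted p under 0.05. At an unadjusted p under 0.05, 0 were lower as well, and DESeq2 and limma also called 0 lower. The background was 47.2% of 15794 genes called, 24.5% higher and 22.7% lower, so a share of 1 in 3 stands near it. The median log2 fold change of the 3 tested members was 0.25, against 0.004 over all genes tested. Scaling by library size alone in place of TMM moved the split over all genes from 3869 higher and 3579 lower to 4905 and 2997.

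Hoxb2, the most 3′ of the 8, had 8, 10 and 3 counts in LUC (0.119, 0.154 and 0.0505 CPM) and 19, 18 and 15 in SETBP1-D868N (0.290, 0.275 and 0.226 CPM). All 3 SETBP1-D868N libraries lay above all 3 LUC libraries, as did one group or the other for 56.7% of genes tested. Hoxb2 rose 2.39-fold, a log2 fold change of 1.25 (SE 0.403, 95% interval 0.375 to 2.13, edgeR adjusted p = 0.0224). Hoxb2 passed the filter through SETBP1-D868N alone: 3 of its 3 libraries and 0 of 3 LUC libraries reached the limit of 0.154 CPM, so the call is a description of a gene that could enter the test only by being higher there. The call was lost with DESeq2 (adjusted p = 0.0562), without LUC library 3 (0.94, edgeR adjusted p = 0.0844), without SETBP1-D868N library 1 (1.18, 0.067) and without SETBP1-D868N library 2 (1.22, 0.0625).

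Hoxb5, whose product marks long-term stem cells, had 0, 0 and 1 counts in LUC and 14, 11 and 7 in SETBP1-D868N (0.213, 0.168 and 0.105 CPM). The groups did not overlap. Hoxb5 failed the filter on low counts, so it has no call. Against the floor of 3 counts per library it was at least 3.45-fold higher in SETBP1-D868N, with an exact two-sided permutation p of 0.1, the smallest that 3 against 3 can give. Run without the filter, edgeR called it higher (adjusted p = 2.43e-05).

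Hoxb4, the best covered member, had 551, 648 and 545 counts in LUC (8.20, 9.95 and 9.18 CPM) and 673, 563 and 577 in SETBP1-D868N (10.3, 8.61 and 8.69 CPM). The ranges of the groups lay over each other. The log2 fold change was 0.012 (SE 0.089, edgeR adjusted p = 0.926), and the 95% interval of the fold ran from 0.881 to 1.15. Its sign turned when LUC library 1 (-0.059) or SETBP1-D868N library 1 (-0.078) was left out.

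Hoxb3, a neighbour of Hoxb4 that also acts in stem cell self-renewal, had 118, 119 and 111 counts in LUC (1.76, 1.83 and 1.87 CPM) and 150, 147 and 130 in SETBP1-D868N (2.29, 2.25 and 1.96 CPM). All treated libraries lay above all controls, yet the difference did not pass the test. Its log2 fold change was 0.25 (SE 0.123, 95% interval -0.018 to 0.52, edgeR adjusted p = 0.116).

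**Figure D2:**
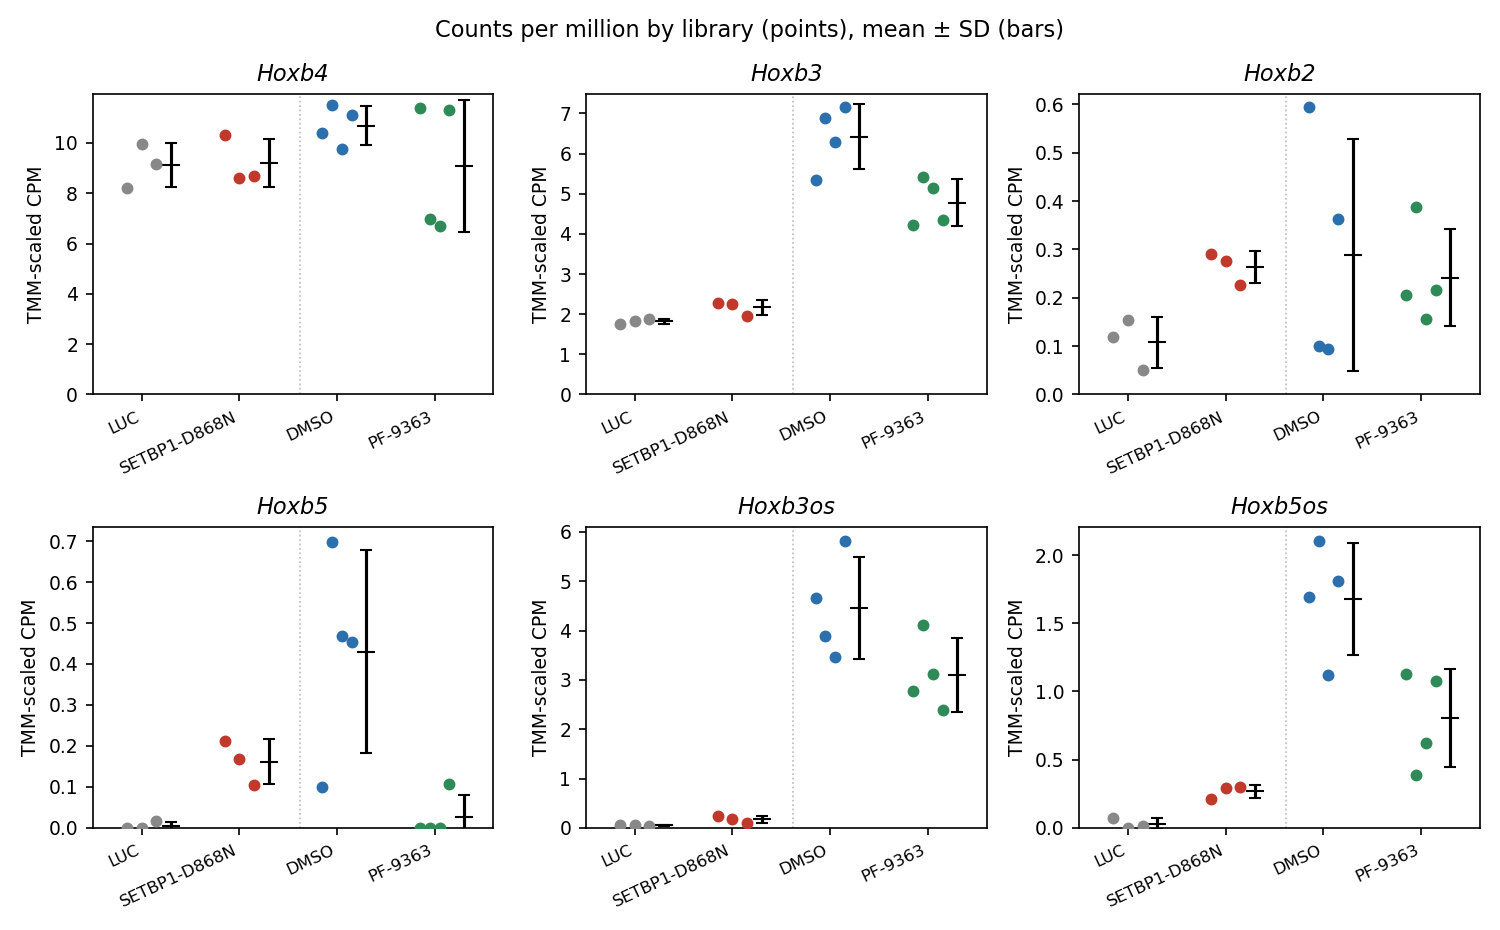
TMM-scaled CPM (vertical) of 4 members and 2 antisense genes in each library (points), by group (horizontal), with the mean and SD as bars; a dotted line separates the experiments. Hoxb4 sits between 6.69 and 11.5 CPM in all 14 libraries, whereas Hoxb5 is at 0 or 1 count in LUC and in PF-9363.

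Among the other genes of the locus, the antisense RNA Hoxb5os had 5, 0 and 1 counts in LUC and 14, 19 and 20 in SETBP1-D868N. It was called higher (edgeR adjusted p = 0.00155), with no overlap of the groups. It was 5.70-fold higher when its LUC mean was set to the floor of 3 counts per library. That mean lay under the floor, but LUC library 1 had 5 counts, so this is not a lower bound. Hoxb5os too passed the filter through SETBP1-D868N alone. Hoxb3os had 4, 4 and 2 counts in LUC and 16, 12 and 6 in SETBP1-D868N and failed the filter. Without strand in the counting, reads of Hoxb3os and of Hoxb2 or Hoxb3 cannot be told apart where their exons overlap. Mir10a, a microRNA gene between Hoxb4 and Hoxb5, did not pass the test (log2 fold change 0.31, edgeR adjusted p = 0.624). Hoxb1 and Hoxb13, the outermost genes of the cluster, had at most 3 counts in any library, and Mir196a-1 had 0 in all.

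PF-9363 against DMSO, in cells that were all labelled as carrying SETBP1-D868N, lowered Hoxb3, and Hoxb4 did not pass the test. Of the 8 members, 2 passed the filter, and edgeR called 0 of them higher and 1 lower. DESeq2 and limma also called 0 higher, and 0 were higher at an unadjusted p under 0.05. The background here was 76.0% of 13456 genes called, 36.6% higher and 39.4% lower, so 1 of 2 tells little about these members. The median log2 fold change of the 2 was -0.32, against -0.038 over all genes. Scaling by library size alone shifted the median of all genes by -0.23 and moved the split from 4921 higher and 5307 lower to 3775 and 6653, and both members then counted as lower (edgeR, Hoxb4 -0.43, adjusted p = 0.0217), which for Hoxb4 is -0.20 relative to that shift.

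Hoxb3 had 54, 69, 67 and 79 counts in DMSO (5.35, 6.88, 6.28 and 7.17 CPM) and 41, 42, 33 and 40 in PF-9363 (4.22, 5.41, 5.14 and 4.34 CPM). DMSO library 1 lay just under the highest PF-9363 library, so the groups overlapped, whereas 70.3% of genes tested did not. Exons of Hoxb3 share 52.9% of their bases with Hoxb3os, which had 37 to 64 counts in DMSO and 20 to 32 in PF-9363. With the strand setting not given, the part of Hoxb3os reads in the Hoxb3 values was not tested. Hoxb3 fell by 0.44 on the log2 scale (SE 0.196, 95% interval -0.84 to -0.037, edgeR adjusted p = 0.0442). The call is close to the threshold: it was lost with DESeq2's size factors in edgeR (adjusted p = 0.0574), with DESeq2 (0.0779), without the filter (0.0625), with the replicate number as a block (0.065), and when DMSO library 2, 3 or 4 or PF-9363 library 1, 3 or 4 was left out (0.0532 to 0.111).

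Hoxb4 had 105, 115, 104 and 122 counts in DMSO (10.4, 11.5, 9.74 and 11.1 CPM) and 111, 54, 43 and 104 in PF-9363 (11.4, 6.96, 6.69 and 11.3 CPM). PF-9363 libraries 1 and 4 lay within the DMSO range and libraries 2 and 3 below it. Libraries 2 and 3 were also the shallowest of the experiment, and the part of depth in the split was not tested. The log2 fold change was -0.20 (SE 0.169, 95% interval -0.55 to 0.14, edgeR adjusted p = 0.274), so a fold from 0.683 to 1.10 lies inside the interval.

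Hoxb5 had 1, 7, 5 and 5 counts in DMSO (0.0992, 0.698, 0.468 and 0.454 CPM) and 0, 0, 0 and 1 in PF-9363. DMSO library 1, with 1 count, overlapped the treated group. It was not tested for low counts. Against the floor it was at least 1.16-fold lower in PF-9363 (exact permutation test, two-sided p = 0.0571, where 4 against 4 allows 0.0286), and without the filter edgeR called it lower (adjusted p = 0.0157).

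Hoxb2 had 6, 1, 1 and 4 counts in DMSO and 2, 3, 1 and 2 in PF-9363, and a difference was not detectable at this depth (exact permutation test, two-sided p = 0.771). The antisense Hoxb5os had 17, 21, 12 and 20 counts in DMSO and 11, 3, 4 and 10 in PF-9363 and fell by 0.99 on the log2 scale (SE 0.401, edgeR adjusted p = 0.0272). That call was lost with DESeq2 (adjusted p = 0.0514) and when DMSO library 2 or 4 or PF-9363 library 2 or 3 was left out. Hoxb3os had 47, 39, 37 and 64 counts in DMSO and 27, 32, 20 and 22 in PF-9363, a log2 fold change of -0.54 that did not pass (SE 0.25, edgeR adjusted p = 0.053). It was called lower without DMSO library 2, DMSO library 3 or PF-9363 library 2.

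The HOX-A cluster, which carries the paralogues of these genes, differed far more between the groups in the same libraries. Its summed level was 5.19 ± 0.155 CPM in LUC and 70.7 ± 3.14 in SETBP1-D868N (SD, n = 3 each), against 11.1 ± 0.907 and 11.8 ± 1.08 CPM for HOX-B. With DMSO it was 148 ± 7.39 CPM and with PF-9363 21.5 ± 1.37 (n = 4 each), against 18.0 ± 1.56 and 14.6 ± 2.04 CPM for HOX-B. These sums hold all 11 HOX-A genes and the 8 HOX-B members. The HOX-B shares given next also count Hoxb1 and Hoxb13.

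HOX-B made up 65.7% to 70.0% of all HOX counts in LUC and 13.9% to 14.9% in SETBP1-D868N, where the groups did not overlap. It was 9.69% to 12.3% in DMSO and 36.1% to 44.5% in PF-9363, again without overlap. The HOX-C and HOX-D genes had too few counts to be tested.

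**Figure D3:**
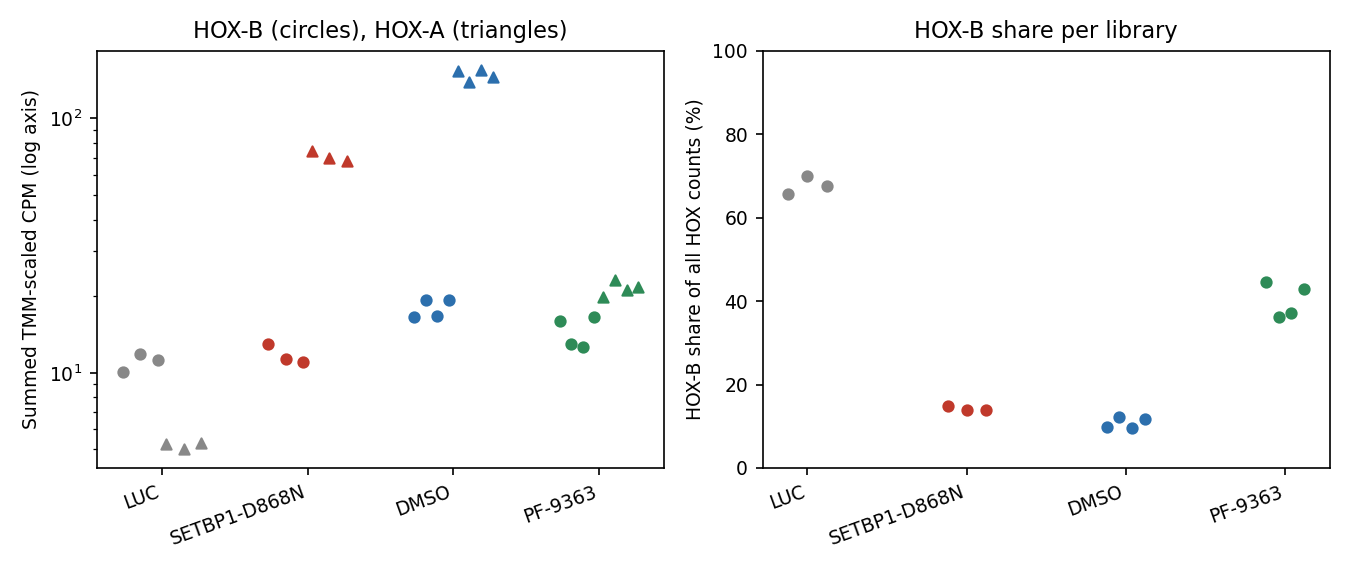
Left, summed TMM-scaled CPM (vertical, log axis) of HOX-B (circles) and HOX-A (triangles) in each library by group; right, the HOX-B share of all HOX counts (%). HOX-B stays between 10.1 and 19.4 CPM in all 14 libraries while its share ranges from 9.69% to 70.0%.

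In SETBP1-D868N, 7 of the 8 tested HOX-A genes were called higher, with a median log2 fold change of 3.63, or 3.60 with Hoxa6 at its bound. Hoxa10 rose by 5.95 (SE 0.15), Hoxa9, a driver of myeloid leukaemia, by 4.03 (SE 0.078) and Hoxa7 by 3.85 (SE 0.122). Hoxa6, with a LUC mean under the floor of 3 counts per library, was at least 13.8-fold higher. Hoxa3 and Hoxa6 passed the filter through SETBP1-D868N alone, and Hoxa3 and Hoxa5 in the second experiment through DMSO alone. With PF-9363 all 6 tested HOX-A genes were called lower, with a median of -2.37, and Hoxa9 fell by 3.37 (SE 0.107), Hoxa5 by 2.90 (SE 0.398), Hoxa7 fell by 2.42 (SE 0.147) and Hoxa3 fell by 2.32 (SE 0.458).

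The difference between paralogues was tested within libraries as the log2 ratio of their counts, with 0.5 added to each, a test chosen after the values were known. The log2 ratio of Hoxa3 to Hoxb3 averaged -4.03 in LUC (-4.72 to -3.65) and -1.45 in SETBP1-D868N (-1.98 to -0.85). The difference was 2.58 (exact permutation test, two-sided p = 0.1, adjusted over 2 pairs 0.1, the smallest 3 against 3 can give). For Hoxa4 and Hoxb4 the log2 ratio went from -4.55 to -3.66, a difference of 0.89 with the same exact permutation p of 0.1. With PF-9363 the log2 ratio of Hoxa3 to Hoxb3 went from -1.56 to -3.60, a difference of -2.04 (exact permutation test, two-sided p = 0.0286, the smallest 4 against 4 can give, 1 pair). Groups did not overlap in any of these 3 comparisons. Hoxa3 passed the filter through SETBP1-D868N alone in the first experiment and through DMSO alone in the second. Its pair with Hoxb3 could therefore enter only by Hoxa3 being higher there, and those p-values and the lack of overlap are a description.

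**Figure D4:**
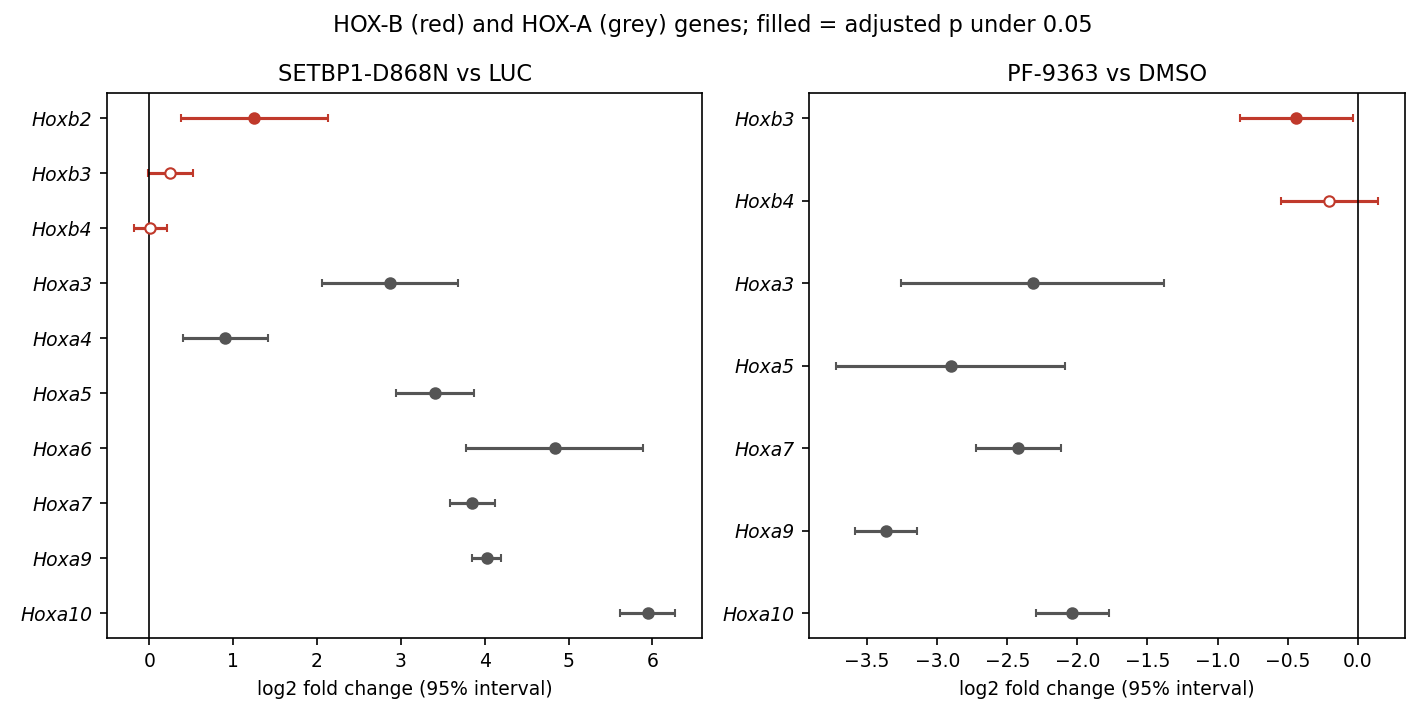
Log2 fold change with its 95% interval (horizontal) for each tested HOX-B gene (red) and 7 HOX-A genes (grey, where tested) in the 2 comparisons, filled where the adjusted p was under 0.05. The HOX-B points lie between -0.44 and 1.25, and the HOX-A points, with Hoxa6 fitted against a LUC mean under the floor, reach 5.95 in the left panel and -3.37 in the right panel.

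List counts from here on stand beside the 47.2% of all genes tested that were called in SETBP1-D868N and the 76.0% with PF-9363. A list near these shares says little about its members. The genes flanking the cluster, from a list of 13 with 8 tested, gave 2 called higher and 2 lower in SETBP1-D868N (median log2 fold change -0.030). Copz2, a coat protein subunit (-0.36), and Skap1, a T-cell adaptor (-0.33), fell, and Cbx1, a heterochromatin protein (0.26), and Cdk5rap3 (0.096) rose. With PF-9363, 4 of the 8 were called higher and 3 lower (median 0.15), led by Nfe2l1, a stress transcription factor (1.69), Copz2 (-1.65), Skap1 (1.43) and Cdk5rap3 (-1.29).

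Of the 9 TALE cofactors that bind DNA with HOX proteins, 3 were called higher and 2 lower in SETBP1-D868N (median -0.034). The shares over all genes tested were 47.2% in SETBP1-D868N and 76.0% with PF-9363. Meis1, a partner of HOX proteins in leukaemia, rose by 1.09, Pbx4 by 1.21 and Pbx3 by 0.56, and Meis2 fell by 1.29 on the log2 scale. With PF-9363, 1 of 6 tested was called higher, Meis1 at 0.34, and 2 lower, Pknox2 at -0.72 and Pbx2 at -0.21 (median -0.090).

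Regulators of the HOX clusters were counted in the same way. Over all genes tested, 24.5% were called higher and 22.7% lower in SETBP1-D868N, and 36.6% higher and 39.4% lower with PF-9363. Counts near these shares are not a result about the regulators. Of 14 genes of the KMT2A, menin and DOT1L machinery, which keeps HOX chromatin active, 7 were called higher and 2 lower in SETBP1-D868N (median 0.092), and 8 and 5 with PF-9363 (median 0.30). With PF-9363 Mllt6 rose by 2.36, Kmt2a by 1.16 and Aff1 by 0.96, and Men1, which encodes menin, fell by 1.29 on the log2 scale. Of 11 MYST enzymes and partners, 2 were called higher and 0 lower by edgeR in SETBP1-D868N (1 lower at an unadjusted p under 0.05), and 5 higher and 0 lower with PF-9363 (0 lower unadjusted). In the latter, Kat6a rose by 0.97 and Brpf3 by 1.35. Of 19 genes in the Polycomb list, which holds subunits of complexes that silence HOX loci and the opposing demethylases Kdm6a and Kdm6b, 6 rose and 3 fell in SETBP1-D868N, and 7 rose and 5 fell with PF-9363, where Bmi1 rose by 1.99 and Ezh2 fell by 1.87. Kdm6b is among those that fell in SETBP1-D868N (-0.30) and those that rose with PF-9363 (0.81), and Kdm6a did not pass in either. Of 12 CDX and retinoic acid genes, 0 of the 8 tested were called higher by edgeR (1 at an unadjusted p under 0.05) and 4 lower in SETBP1-D868N, and 4 of the 5 tested were called higher and 1 lower with PF-9363. Aldh1a2, an enzyme that makes retinoic acid, led both, and in SETBP1-D868N it fell by 0.78 on the log2 scale. With PF-9363 it was 58.2-fold higher when its DMSO mean was set to the floor of 3 counts per library. That mean lay under the floor, but DMSO libraries had 0 to 4 counts, so this is not a lower bound.

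Of 15 stem cell transcription factors, 11 were called higher and 0 lower by edgeR in SETBP1-D868N (0 lower at an unadjusted p under 0.05 too, median 0.23), among them Mecom at 1.08 and Myb at 0.82. With PF-9363, 6 were called higher and 7 lower (median -0.12), with Myb at -2.71 and Gata2 at 2.40. Gata2 also stands in the list of mast cell and basophil markers below. These lists were drawn up with earlier results of these data known.

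Markers of other cell types moved between the groups in which the members were compared, given as ranges over libraries with the control group first. In SETBP1-D868N, 10 of 10 neutrophil markers were called lower, 21120-21910 summed CPM in LUC against 11440-13920, and 9 of 10 monocyte and macrophage markers, 2811-2968 against 1820-2018. The 10 mast cell and basophil markers were split, 5 higher and 5 lower, 5747-5962 summed CPM against 6255-6377. With PF-9363, 8 of 10 monocyte and macrophage markers were called higher and 1 lower, 2423-2644 against 9298-11100 summed CPM, and 9 of 10 mast cell and basophil markers were higher, 1230-1576 against 4795-5781. The 10 neutrophil markers gave 5 higher and 1 lower, 14120-17250 against 17200-18630 summed CPM. The 10 stem and progenitor markers gave 4 higher and 5 lower in SETBP1-D868N (385.8 to 396.8 and 341.2 to 357.6 summed CPM), and 5 higher and 2 lower of 9 with PF-9363 (148.2 to 158.2 and 284.6 to 339.8). In the latter sum Kit alone went from a mean of 69.81 to 191.1 CPM, while the 2 called lower were Flt3 and Cd27. With PF-9363, 5 of 6 tested eosinophil markers were called lower and 1 higher, 634.9-824.3 against 256.9-366.7 summed CPM, and 3 of 4 tested megakaryocyte markers higher and 1 lower, 74.17-87.31 against 411.6-470.9. In SETBP1-D868N, 4 of 6 tested dendritic cell markers were called lower, 92.67-108.5 against 64.05-75.89 summed CPM. Of 5 tested megakaryocyte markers there, 4 were called lower and 1 higher, Itga2b (log2 fold change 0.22), 419.7-429.2 against 367.3-402.1 summed CPM. The 3 tested B-cell markers were all called lower with PF-9363, with the list at 63.26-72.76 against 3.736-6.574 summed CPM. The B-cell transcription factor gene Ebf1 was at 0 in all libraries of the second experiment. The part of these shifts in the values of Hoxb2, Hoxb3 and Hoxb5 was not tested, and in bulk RNA fewer cells of a type and less RNA per cell cannot be told apart.

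The genes whose pattern was most like the summed HOX-B counts were picked by Pearson correlation of log2 CPM over the 14 libraries, each experiment centred on its own mean, among 10361 genes. They were Zfp157 (r = 0.896), Snrnp48 (0.881), Sft2d3 (0.880), Fuz (0.854) and Nudt16l1 (0.854), and the points share library depth and preparation. With PF-9363 the log2 fold changes of these 5 were -0.86, -0.81, -0.58, -0.23 and -0.48, and in SETBP1-D868N 0.15, 0.29, 0.072, 0.13 and 0.043.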

How the data were processed

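The authors deposited raw counts of reads per gene, 1 table for each of the 2 experiments, and each column was matched to its library by the label that names it. The submitters' processing notes name STAR and DESeq2 and the builds GRCm38 and mm10; their roles and versions, the counting tool, the annotation and the strand setting are not given in the sources used here. Counts were tested with edgeR 4.0.16 in R 4.3.3 (robust quasi-likelihood test, TMM scaling) on all genes passing edgeR's filter by expression (minimum count 10, minimum total 15), separately in each experiment, with Benjamini-Hochberg adjustment over all genes and a threshold of 0.05. Intervals are 95% intervals from the same fit. Alternatives were other scaling, no filter or a stricter one, no robust step, limma 3.58.1 (voom), DESeq2 1.42.0, a replicate block and each library left out. Tested on simulated data, it recovered 90.3% of seeded 2-fold and 75.3% of 1.5-fold changes, with 4.79% of calls false, for SETBP1-D868N against LUC (15794 genes), and 88.3%, 72.3% and 5.86% for PF-9363 against DMSO (13456 genes). Only a small random set of genes of any level was changed there, whereas 47.2% and 76.0% of genes were called in the data. These rates may therefore not hold for the 2 comparisons or for members with low counts. Named genes were all 8 members, the other genes of the locus, up to 4 called genes per list with the greatest fold change, and the 5 genes most like the HOX-B sum; Setbp1 was added to check the labels. The members and lists were chosen with earlier results of these data known. Gene positions came from GENCODE M21 and promoters from RefSeq. Of the tested HOX-A genes, 1 is counted but not reported by name or plotted here.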

Additional observations from a re-analysis of the deposited data

Results flagged for a closer look

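In 2 of 19 groups of 4 libraries examined, 1 library lay apart from the other 3. The usual chance rate of about 1 in 20 groups is for continuous values and does not hold for counts this low. PF-9363 library 4 had 0.108 CPM of Hoxb5 and PF-9363 library 1 had 0.103 CPM of Hoxb9. Each value is 1 count beside 0 in the other 3 libraries, a pattern the rule always flags.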

How the results depend on the processing

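The count of members called higher in SETBP1-D868N, 1, became 2 without the filter on low counts (Hoxb5 joined Hoxb2) and 0 with DESeq2, and ranged from 0 to 2 with 1 library left out. The count called lower with PF-9363, 1, became 0 with DESeq2's size factors, 0 with DESeq2 and 2 with library size only, and ranged from 0 to 1 with 1 library left out; without the filter it stayed at 1, with Hoxb5 in place of Hoxb3. Hoxb4 in SETBP1-D868N turned to -0.059 without LUC library 1 and to -0.078 without SETBP1-D868N library 1, the lowest of its values with 1 library left out, and reached 0.081 at most. With the replicate number as a block, 1 member was called higher in SETBP1-D868N and 0 lower with PF-9363 (Hoxb3 -0.43, edgeR adjusted p = 0.065). Same-numbered libraries did not deviate together (r = -0.178, -0.045 and -0.144 with SETBP1-D868N and LUC, and 0.011, -0.019, -0.038 and -0.007 with PF-9363 and DMSO). With 3 or 4 libraries in a group this cannot decide whether they shared a mouse or culture, which the labels do not give. Dividing by exon length moved the Hoxb4 share of the cluster from 82.3% to 88.3% in LUC, 78.0% to 84.7% in SETBP1-D868N and 59.5% to 69.3% in DMSO, and the Hoxb3 share from 16.5% to 10.7%, 18.4% to 12.1%, 35.6% to 25.1% and, in PF-9363, 33.7% to 23.6%. Hoxb2, Hoxb5 and Hoxb6 failed the filter in the second experiment, which was shallower; the part of depth in this was not tested.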
